A study of Mus musculus with 25 samples.

Results

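The genes described here are Il6 and 8 genes through which it and related cytokines signal: the receptors Il6ra, Il6st, Osmr, Lifr and Cntfr, the kinase Jak1, the transcription factor Stat3 and the inhibitor Socs3. They were chosen by symbol, and all 9 were found among the 23990 genes of the deposited expression table. Il6 is included as a known target of dihydrocaffeic acid, a compound given to other mice of the study.

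Interleukin-6 binds its receptor Il6ra, on a cell or shed from it, and the complex then brings together copies of gp130, the product of Il6st. Leukaemia inhibitory factor, oncostatin M and ciliary neurotrophic factor use the same gp130 paired with the receptors of Lifr or Osmr, and ciliary neurotrophic factor also needs the anchored receptor of Cntfr. Gp130 activates Janus kinases such as Jak1, which phosphorylate Stat3, and Stat3 turns on Socs3, whose product binds gp130 and blocks the kinases. In the brain, astrocytes, microglia and vessel cells respond to these cytokines, and Stat3 is known for its part in the reactive state of astrocytes.

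The study sequenced total RNA of the prefrontal cortex from 25 samples of wild-type C57BL/6 mice aged 10 weeks, 13 male and 12 female, in 6 groups. The values below come from 5 libraries of 1 group, the male mice that went through social defeat stress, in which an aggressor attacks the mouse, and received vehicle. Vehicle, or dihydrocaffeic acid with malvidin-glucoside in other groups, was given from 2 weeks before the defeats until their end. Only these 5 columns of the table could be tied to a group by name, so no effect of stress, treatment or sex could be measured, and the other 20 columns were not used here. The labels do not say that the libraries came from separate animals, so differences between them may be technical.

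The libraries held 34565147 to 44265039 reads over genes, and 21790 to 22277 genes had reads in each. Levels are given as CPM, reads scaled to the effective library size, to compare libraries for 1 gene, and as RPKM, CPM per kilobase of exon, to compare genes. Low read numbers were mostly even: 71.1% to 74.1% of genes with 1 to 10 reads had an even number, against 49.4% to 52.1% of genes with more than 1000 and up to 10000 reads. Each library had 1173 to 1301 genes with 2 reads but 310 to 447 with 1 read. Intervals and tests on reads therefore understate the counting error where reads come in pairs, and values counted in read pairs are given beside them. The Y-linked Ddx3y lay at 47.1 to 53.8 CPM and Xist at 0.0580 to 0.269 CPM, matching the male label, and markers of cortical excitatory neurons such as Camk2a and of astrocytes such as Slc1a2 were high in all 5 libraries.

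Sequences upstream of the cytokine and of the inhibitor are shown because these are the genes of the pathway known to be induced, Il6 by inflammatory factors and Socs3 by Stat3, and both were low in these libraries. They come from RefSeq on GRCm38.p6 and are written in the direction of the gene. The first is the 250 bases before the Il6 start, chr5:30012864-30013113 on the plus strand, and the second is chr11:117969482-117969556 on the minus strand, 190 to 116 bases before the RefSeq start of Socs3 and inside an intron of a longer non-coding Socs3 transcript in GENCODE M21. Capitals mark matches to a C/EBP motif (TTGNGCAA on either strand) starting 128 bases before the start of Il6, to an NF-kB motif starting 44 bases before it, and to a STAT motif (TTCNNNGAA, the same on both strands) starting 154 bases before the start of Socs3.
Il6: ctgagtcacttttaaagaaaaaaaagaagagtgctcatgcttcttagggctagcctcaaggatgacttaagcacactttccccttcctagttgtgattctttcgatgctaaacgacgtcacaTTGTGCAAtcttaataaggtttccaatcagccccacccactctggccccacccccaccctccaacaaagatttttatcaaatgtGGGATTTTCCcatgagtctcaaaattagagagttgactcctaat
Socs3: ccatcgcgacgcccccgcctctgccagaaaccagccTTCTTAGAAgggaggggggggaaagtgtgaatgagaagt
Over 32851 RefSeq windows of 300 bases around gene starts, 8.30% held the STAT motif, 2.94% the C/EBP motif and 4.51% the NF-kB motif, searched on both strands. Among the 15 windows of the 9 genes, the STAT motif was found at Socs3 alone, the C/EBP motif at Il6 alone, and the NF-kB motif at Il6 and Cntfr. These matches describe the letters only, and the libraries hold no measurement of binding.

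Il6 itself was close to the limit of detection. Il6 (chromosome 5, 30013114 to 30019981, plus strand, GRCm38) had 0, 2, 0, 0 and 4 reads in replicates 1 to 5, or 0, 0.0523, 0, 0 and 0.1005 CPM. Its reads came from replicates 2 and 5 only, and replicate 5 alone lay above the level of 3 reads, which was 0.0673 to 0.0870 CPM in single libraries. The 4 reads of replicate 5 would be 2 read pairs, and no library would reach 3 pairs. The 6 reads pooled over the 5 libraries amount to 0.0302 CPM, with an exact Poisson 95% interval of 0.0111 to 0.0657, or 0.00623 to 0.0882 if they are 3 pairs. In replicates 1, 3 and 4 the count of 0 allows up to 0.0888, 0.0827 and 0.107 CPM by the same exact interval, or 0.178, 0.165 and 0.214 in read pairs. Without replicate 5 the mean of the libraries went from 0.0306 to 0.0131 CPM. Il6 averaged 1.2 reads, under the minimum of 5 for the test of spread. With no minimum its adjusted p was 0.0447 in reads and 0.382 in read pairs, from a chi-square approximation that is poor at so few reads, so no difference between libraries is reported for it.

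The other cytokines that signal through gp130 were low as well. Of 10 listed, Il31 is not in the table, and 7 of the other 9 had a mean under 1 CPM. Cardiotrophin 1 (Ctf1), known for its action on heart muscle and neurons, was the most abundant per length, at 0.732 ± 0.151 RPKM (SD, n = 5) and 1.11, 1.54, 1.30, 1.04 and 1.68 CPM in replicates 1 to 5. Cardiotrophin-like cytokine factor 1 (Clcf1), a ligand of the receptor of Cntfr, had 1.49, 1.15, 1.08, 1.25 and 0.754 CPM. Both were detected in every library, and Ctf1 was highest in replicate 5, where Clcf1 was lowest. Pooled levels were 0.443 CPM for leukaemia inhibitory factor (Lif), 0.206 for Il11, 0.181 for oncostatin M (Osm) and 0.0705 for ciliary neurotrophic factor (Cntf). Il27 was under 3 reads in each library, with 2, 0, 0, 2 and 0 reads.

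Il6ra, the receptor chain that binds interleukin-6, was low but measured in every library. Il6ra (chromosome 3, 89864059 to 89913196, minus strand) had 330, 273, 338, 304 and 290 reads, or 7.94, 7.14, 7.58, 8.81 and 7.28 CPM in replicates 1 to 5. Replicate 4 was the highest, and the mean was 7.75 ± 0.669 CPM (SD, n = 5). The spread did not pass the test described below (adjusted p = 0.0981; 0.475 in read pairs), and the coefficient of variation (CV) beyond counting error was 6.47%, 3.02% in read pairs and 0% without replicate 4. The antisense gene Gm42809 overlaps it by 281 bases from gene start to gene end. Whether exons overlap there was not checked, and without a stated strand any shared reads cannot be told apart. Adam10 and Adam17, proteases that shed membrane receptors including Il6ra, were measured at 20.4 ± 1.49 and 2.57 RPKM, against 0.897 ± 0.0774 RPKM for Il6ra. In a bulk library, fewer cells of a type and less RNA per cell cannot be told apart.

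Il6st, which encodes the shared gp130 chain, was the steadiest of the 8 genes tested when counted in reads. Il6st (chromosome 13, 112464070 to 112510086, plus strand) had 74.0, 73.2, 77.2, 77.0 and 74.3 CPM in replicates 1 to 5, a mean of 75.1 ± 1.84 CPM (SD, n = 5). No library stood apart, and the highest was 1.06 times the lowest. Its CV beyond counting error was 1.62%, and 0% when reads were counted in pairs, and it did not pass the test (chi-square test, adjusted p = 0.150; 0.552 in read pairs). Of the 14524 genes averaging 1 CPM or more, 800 (5.51%) had a lower CV than the 1.62% of Il6st. That CV was 1.01% when libraries were scaled by median of ratios and 0% when scaled to total reads. The rank was not computed for those scalings.

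Cntfr, the ligand-binding receptor of ciliary neurotrophic factor, was the most abundant per length of the 9 genes. Cntfr (chromosome 4, 41657498 to 41697089, minus strand) had 83.9, 77.1, 74.9, 71.4 and 81.4 CPM in replicates 1 to 5, a mean of 77.8 ± 4.97 CPM (SD, n = 5) and 27.95 ± 1.79 RPKM. Replicate 1 was the highest and replicate 4 the lowest. This spread exceeded counting error (chi-square test, adjusted p = 2.37e-09; 2.64e-04 in read pairs), with a CV beyond it of 6.14%. Il11ra1, which binds interleukin-11, lies beside Cntfr on chromosome 4 and was also highest in replicate 1, with 46.7, 43.0, 40.1, 37.5 and 37.5 CPM. Replicates 4 and 5 were level for Il11ra1, whereas Cntfr was lowest in replicate 4 and at 81.4 CPM in replicate 5. The mean per length of Il11ra1 was 9.17 ± 0.878 RPKM (SD, n = 5), which is uncertain because Il11ra1 has near-identical copies in the mouse genome that can share its reads.

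Lifr, the receptor chain for leukaemia inhibitory factor, stood apart in 1 library. Lifr (chromosome 15, 7090614 to 7197489, plus strand) had 36.7, 39.1, 39.1, 48.6 and 40.1 CPM in replicates 1 to 5, a mean of 40.7 ± 4.59 CPM (SD, n = 5). Replicates 1, 2, 3 and 5 lay between 36.7 and 40.1, and replicate 4 was above all of them. The reads varied beyond counting error (adjusted p = 9.88e-15; 7.93e-07 in read pairs; chi-square test with Benjamini-Hochberg adjustment over all genes). Without replicate 4 they did not pass the test (adjusted p = 0.108), and the CV beyond counting error went from 11.0% to 2.81%.

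Osmr, the receptor chain for oncostatin M, was the lowest of the 5 receptors among the 9 genes and the most variable of the 8 tested. Osmr (chromosome 15, 6813577 to 6874969, minus strand) had 200, 116, 144, 157 and 219 reads, or 4.81, 3.03, 3.23, 4.55 and 5.50 CPM in replicates 1 to 5. Replicates 2 and 3 were low, replicates 1, 4 and 5 were higher, and the highest was 1.81 times the lowest. The mean was 4.23 ± 1.06 CPM (SD, n = 5), and the variation exceeded counting error (chi-square test, adjusted p = 3.69e-08; 9.28e-04 in read pairs). Its CV beyond counting error was 23.9%, against a median of 8.25% over genes of at least 1 CPM, and 1116 of the 14524 (7.68%) had a higher value.

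**Figure D1:**
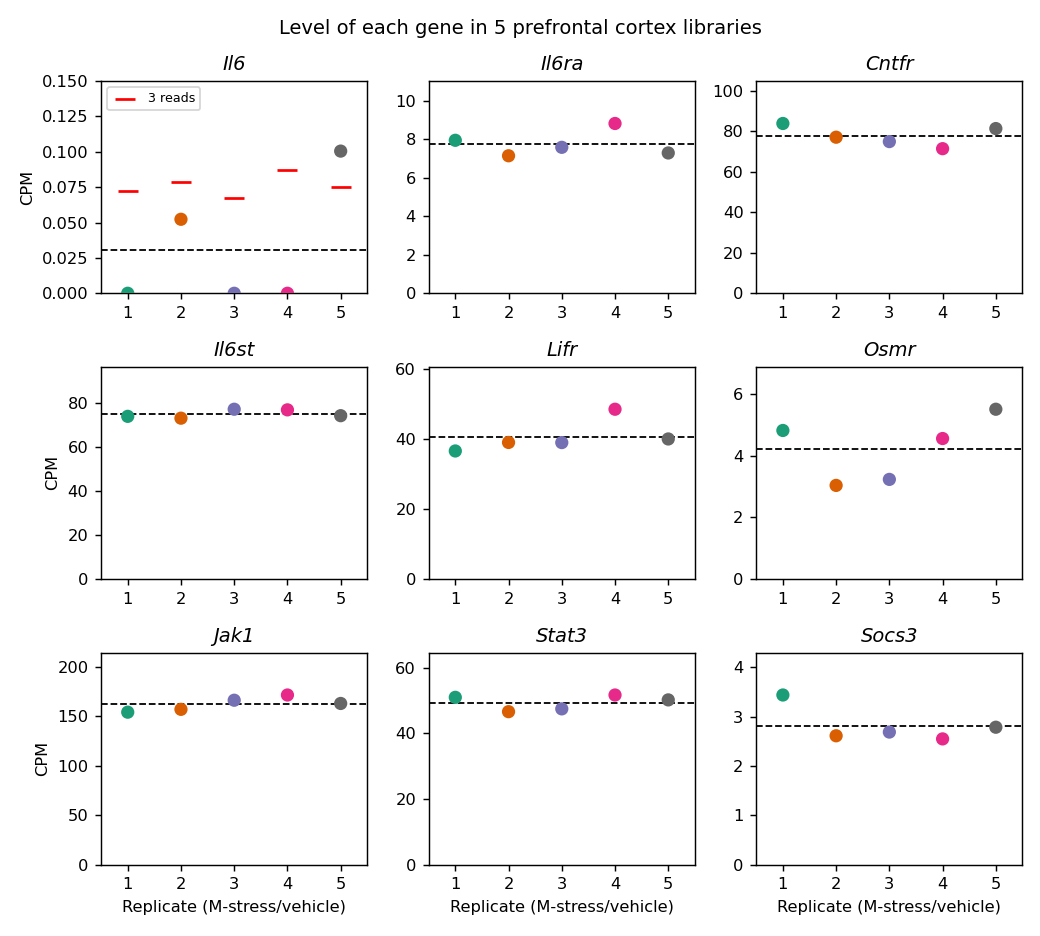
CPM of each of the 9 genes (vertical axes, each from 0) in replicates 1 to 5 of the stressed, vehicle-treated males (horizontal axes), with points for libraries, a dashed line at the mean and, for Il6, red marks at the level of 3 reads. Il6 exceeds its mark, which counts reads, in replicate 5 only, with 4 reads or 2 read pairs. Il6st stays within 73.2 to 77.2 CPM, Lifr reaches 48.6 CPM in replicate 4, and Osmr is lowest in replicates 2 and 3.

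The kinase and the transcription factor below gp130 were well expressed and differed little between libraries. Jak1 (chromosome 4, 101152367 to 101265282, minus strand) had 154, 157, 166, 171 and 163 CPM in replicates 1 to 5, a mean of 162 ± 6.97 CPM (SD, n = 5), with replicate 4 the highest and replicate 1 the lowest. The spread exceeded counting error (chi-square test, adjusted p = 1.04e-08; 5.21e-04 in read pairs), although the highest library was only 1.11 times the lowest. Its CV beyond counting error was 4.11%, and 2.49% when libraries were scaled to their total reads. From gene start to gene end, Jak1 overlaps Raver2 by 4 bases, Gm24468 by 104 and, on the same strand, the pseudogene Gm12785 by 172. Whether exons overlap was not checked.

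Stat3 (chromosome 11, 100885098 to 100939540, minus strand) had 51.0, 46.7, 47.5, 51.7 and 50.2 CPM in replicates 1 to 5, a mean of 49.4 ± 2.23 CPM (SD, n = 5). Replicates 2 and 3 were the lowest, as for Osmr, but the CV beyond counting error was 3.90%. It passed the test in reads (chi-square test, adjusted p = 0.00592), but not in read pairs (adjusted p = 0.165) nor without replicate 2 (adjusted p = 0.0530). Stat3 shares 72 bases with Stat5a on the opposite strand, a gene that itself lay at 1.70 to 2.15 CPM.

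Socs3, the inhibitor induced by Stat3, was low and nearly level in 4 of the 5 libraries. Socs3 (chromosome 11, 117966079 to 117970047, minus strand) had 143, 100, 120, 88 and 111 reads, or 3.44, 2.61, 2.69, 2.55 and 2.79 CPM in replicates 1 to 5. Replicate 1 was the highest, the others lay between 2.55 and 2.79, and the mean was 2.82 ± 0.360 CPM (SD, n = 5). This spread did not pass the test (chi-square test, adjusted p = 0.140; 0.538 in read pairs). The CV beyond counting error was 8.55%, and 0% without replicate 1 or in read pairs.

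Per length, the order from high to low was Cntfr at 27.95 RPKM, Jak1 at 22.4, Il6st at 6.77, Stat3 at 5.19, Lifr at 3.78, Socs3 at 0.975, Il6ra at 0.897, Osmr at 0.349 and Il6 at 0.0126. The ranges over the 5 libraries did not overlap between neighbours, except for Socs3 and Il6ra, where Socs3 was above in 4 of 5 libraries. The order thus separates the genes by more than the spread between libraries everywhere but at that pair. It also rests on the exon lengths used, and the transcripts expressed here may be shorter. In CPM, Jak1 at 162 was above Cntfr at 77.8.

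**Figure D2:**
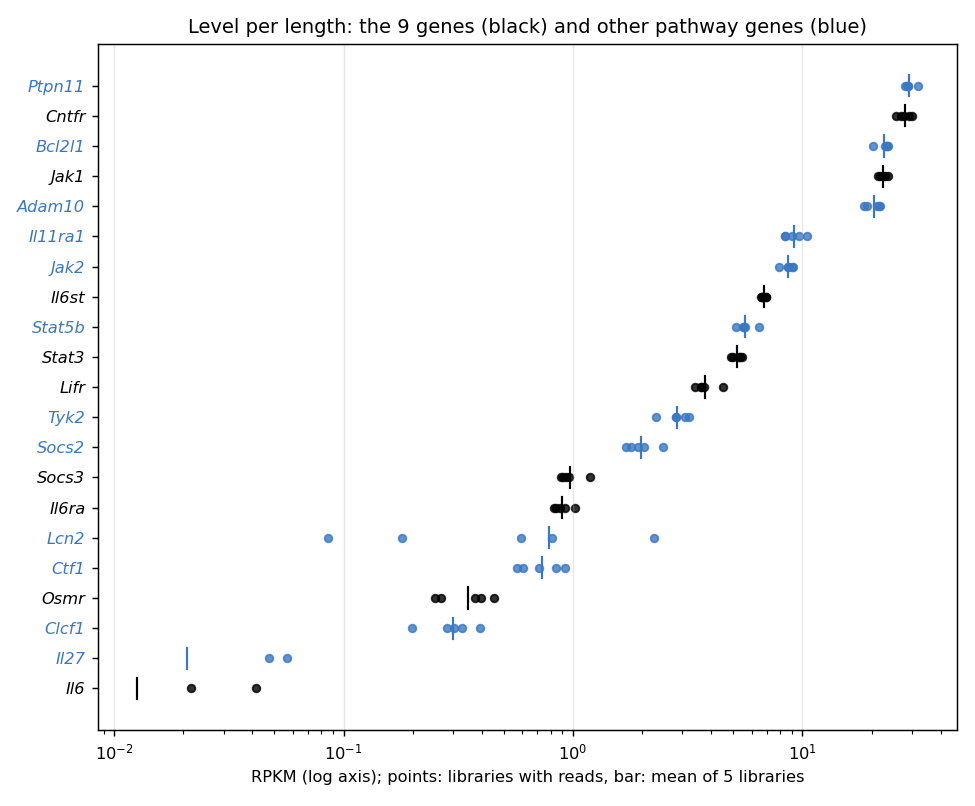
RPKM on a log axis for the 9 genes (black) and 12 other genes of the pathway picked by a fixed rule (blue), with points for the libraries that had reads and bars for the mean of 5 libraries. Cntfr and Jak1 lie beside Ptpn11, Bcl2l1 and Adam10 at the top, and Il6 and Il27 lie at the bottom.

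Ratios of RPKM within a library do not depend on how libraries are scaled. Lifr stood at 0.510, 0.550, 0.521, 0.650 and 0.556 of Il6st in replicates 1 to 5, with replicate 4 again the highest. Osmr stood at 0.0596, 0.0380, 0.0383, 0.0542 and 0.0678 of Il6st, and the low values were again replicates 2 and 3. The means were 0.557 ± 0.0554 for Lifr and 0.0516 ± 0.0132 for Osmr (SD, n = 5), so the ranges of these partner receptors of gp130 did not overlap. Of the receptors that only bind ligand, Il6ra was 0.132 ± 0.00973 of Il6st, between Osmr and Lifr, and Cntfr 4.13 ± 0.341 times Il6st (SD, n = 5). In CPM, Cntfr at 77.8 and Il6st at 75.1 were close, so the ratio of Cntfr to Il6st rests on the exon lengths used. These were 2782 bases for Cntfr and 11099 for Il6st. Socs3 was 0.222, 0.185, 0.187, 0.163 and 0.183 of Stat3, with replicate 1 the highest.

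Of the 8 genes with enough reads to test, 5 varied between libraries beyond counting error (Cntfr, Lifr, Osmr, Jak1 and Stat3), or 62.5%, against 74.4% of all 19239 genes tested (14308 genes; chi-square test, adjusted p under 0.05). Counted in read pairs, 4 of the 8 were called, or 50%, without Stat3, against 45.5% of all genes (8753 genes). The shares are near those of all genes, so the test sets the group apart in neither count. The median CV beyond counting error was 6.30% over the 8 genes and 8.25% over all genes of at least 1 CPM, 3.55% and 7.16% in read pairs.

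**Figure D3:**
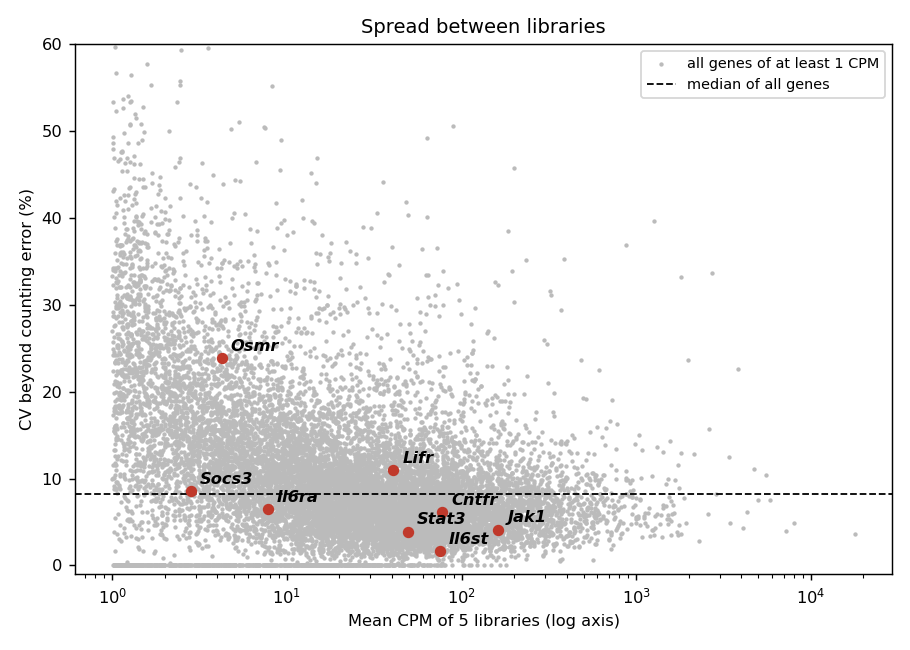
CV beyond counting error (vertical axis, percent) against mean CPM (horizontal log axis) for genes of at least 1 CPM, with the 8 tested genes in red and a dashed line at the median of all genes, 8.25%; 28 genes above 60% lie outside the axis. Osmr at 23.9% and Lifr at 11.0% are above the line, Socs3 at 8.55% is close to it, and Il6st at 1.62% is the lowest of the 8.

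The rest of the pathway was followed through 7 lists of 50 genes, 49 of them in the table. Of 45 with enough reads, 32 (71.1%) varied beyond counting error, and 20 (44.4%) in read pairs, again near the shares of all genes. The median CV beyond counting error was 9.13%. The other Janus kinases were Jak2 at 43.7 ± 2.45 CPM, Tyk2 at 19.5 ± 2.39 CPM (SD, n = 5) and Jak3, and all 3 passed the test in reads. Tyk2 alone passed in read pairs, with its lowest value, 15.7 CPM, in replicate 4. Stat5b, which encodes another STAT transcription factor, passed (31.3 ± 2.69 CPM, highest in replicate 1), and Stat5a did not, with a CV beyond counting error of 0%.

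Inhibitors of the pathway other than Socs3 passed the test in 4 of 7 cases (57.1%, against 74.4% of all genes), and in 3 of 7 in read pairs (42.9%, against 45.5%). Ptpn11, which encodes the phosphatase SHP2 that docks on gp130, was the most abundant gene per length of all the lists, at 29.2 ± 1.62 RPKM (SD, n = 5). Its values were 213, 216, 240, 217 and 209 CPM in replicates 1 to 5, and replicate 3 was above the rest. Socs2, an inhibitor known from growth hormone signalling, had 18.3, 23.6, 16.3, 17.1 and 19.4 CPM, highest in replicate 2.

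Of genes known as targets of Stat3, 19 of 21 tested (90.5%, against 74.4% of all genes) were called, 13 in read pairs (61.9%, against 45.5%), and the median CV beyond counting error was 11.6%. Bcl2l1, which encodes a protein that blocks cell death, was the most abundant per length at 22.7 ± 1.42 RPKM (SD, n = 5) and varied little, with 109, 107, 106, 92.8 and 107 CPM in replicates 1 to 5. Lcn2, which encodes the iron-siderophore-binding acute-phase protein lipocalin 2, was the most variable, with 2.12, 0.471, 0.224, 5.92 and 1.56 CPM. It was highest in replicate 4 and lowest in replicates 2 and 3, and its CV beyond counting error was 111%. Socs3 did not share that order, since it was lowest in replicate 4.

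Other cells in the dissected tissue were followed through marker lists. Replicates 2 and 3 were both below replicates 1, 4 and 5, as for Osmr and Stat3, in 1388 of the 14524 genes (9.56%). The same was true of 7 of 19 Stat3 targets of at least 1 CPM (Junb, Mcl1, Cebpd, Lcn2, A2m, Lrg1 and Icam1), of 5 of 10 astrocyte, 5 of 10 microglia and 4 of 10 endothelial markers, of 5 of 9 mural cell markers, of 10 of 10 markers of leptomeningeal fibroblasts and of 5 of 5 red blood cell genes, most of them near-identical globin copies. It was true of 2 of 10 excitatory neuron markers, 1 of 8 inhibitory neuron markers, 1 of 9 markers of striatal projection neurons, 1 of 9 neutrophil markers, 1 of 6 choroid plexus and ependymal markers and 0 of 12 oligodendrocyte markers. Of these counts, the leptomeningeal, neutrophil and choroid plexus ones include genes under 1 CPM. With at least 1 CPM they were 9 of 9, 1 of 3 and 1 of 2. The most abundant markers were Slc1a2 for astrocytes, Csf1r for microglia, Flt1 for endothelial and Rgs5 for mural cells, Igf2 for leptomeningeal fibroblasts, Hbb-bs for red blood cells and Csf3r for neutrophils. In the other lists they were Camk2a for excitatory, Sst for inhibitory and Ppp1r1b for striatal neurons, Mbp for oligodendrocytes and Foxj1 for choroid plexus and ependyma. Other cells may express genes of the striatal list, and whether striatal neurons were in the samples was not tested. Csf3r differed little, at 6.68 to 7.89 CPM with replicate 1 the highest, whereas 8 of the 9 neutrophil markers were highest in replicate 4. Csf3r made up most of the summed neutrophil markers in replicates 1, 2, 3 and 5, such as 6.68 of 8.003 CPM in replicate 3. The sum alone therefore does not show neutrophils in those libraries. No marker list was at 0: in every list, all markers in the table had at least 3 reads in some library. The leptomeningeal markers summed to 58.8, 39.0, 34.4, 101 and 62.5 CPM in replicates 1 to 5, and the red blood cell genes to 177, 103, 114, 193 and 170 CPM. These sums were low in replicates 2 and 3, where Osmr was low, but highest in replicate 4, where Osmr was not, and their part in the values of Osmr was not tested.

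Replicate 4, where Lifr stood apart, also had the highest sums of the leptomeningeal and red blood cell lists, of the neutrophil list (25.3 CPM, against 8.003 to 10.4 in the others), of the endothelial list (366 CPM, against 302 to 330) and of the excitatory neuron list (8970 CPM, against 7530 to 8247). It had the lowest oligodendrocyte sum, 4377 CPM against 4495 to 9559 in the others. The endothelial and excitatory neuron sums do not hold for every marker. Of 10 endothelial markers, 6 were highest and 2 lowest in replicate 4. Of 10 excitatory neuron markers, 5 were highest and 2 lowest there. Of all genes of at least 1 CPM, 26.8% were highest in replicate 4, as were 4 of the 8 genes here (Il6ra, Lifr, Jak1 and Stat3). Replicate 1, where Socs3 was highest, had the highest sums of the microglia list (489 CPM, against 414 to 459) and of the mural list (225 CPM, against 191 to 213). The astrocyte sum was nearly equal in replicate 1 (8129 CPM) and in replicate 4 (8128 CPM), where Socs3 was lowest. In the others it was 7333 to 7783 CPM. The part of these lists in the values of Lifr and Socs3 was not tested.

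**Figure D4:**
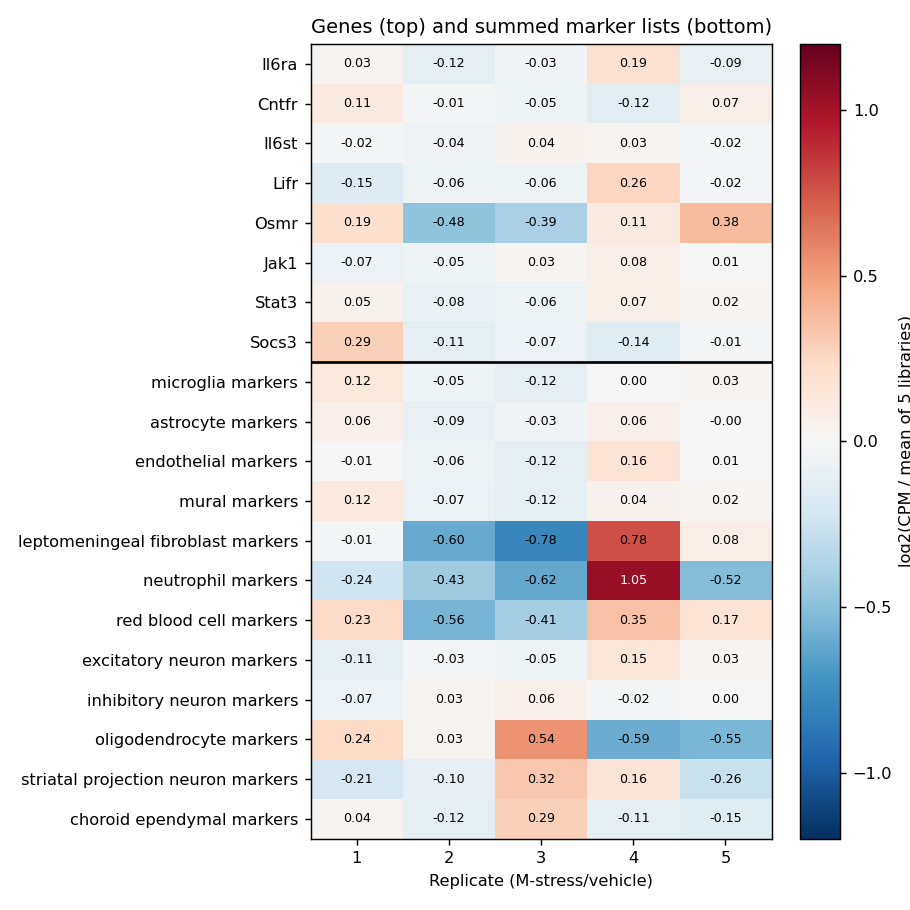
log2 of CPM over the mean of the 5 libraries (colour and printed value) for the 8 tested genes above the line and for 12 summed marker lists below it, with replicates 1 to 5 of the stressed, vehicle-treated males in columns. Osmr and the leptomeningeal and red blood cell lists are low in replicates 2 and 3, the leptomeningeal and neutrophil lists are highest in replicate 4, and Il6st stays within 0.04 of its mean.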

How the data were processed

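RNA of prefrontal cortex was sequenced in 25 samples, and a table of all of them, deposited by the authors in log2 units, was used. The submitters' processing notes name the builds GRCm38 and mm10, the aligner STAR 2.6.1d, Subread 1.6.3 with featureCounts, SAMtools 1.9 and edgeR. Strandedness, the gene filter and the release of the annotation were not given in the sources used here. The 25 columns bear letters that occur in no label. A number 5 occurs under 1 letter and in 1 group, the stressed vehicle males, so these 5 columns were tied to that group, taking a letter as a group and a number as a replicate. By name, 20 columns could belong to any of several groups, and they were not used.

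Reads were recovered from the deposited log2 values, taken as log2 of reads plus 0.5 with the lowest value as 0 reads. All values (100%) came out whole within 1e-06 reads. RPKM used union exon lengths of GENCODE M21, also the source of symbols (23846 of 23990 identifiers matched) and coordinates. Each gene with a mean of at least 5 reads was tested with a chi-square test (4 degrees of freedom) that its reads follow the effective library sizes, with Benjamini-Hochberg adjustment over all such genes. The test was tested on simulated data. No molecular identifiers are described, so intervals, floors and tests cover counting error only. The CV beyond counting error removes the counting variance, 1 over mean reads, from the squared CV. Counting in read pairs, which divides the chi-square value by 2 and multiplies that variance by 2, was added after the read numbers were seen to be mostly even. Counted in read pairs, any 2 libraries differed in at least 2271 genes, and none was taken as a duplicate.

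The members and lists were chosen with earlier results of these data known. Named genes are the 9 members and, per pathway list, the most abundant per length, the most variable of at least 1 CPM and any under 3 reads in each library. Also named are the 3 genes most like the most variable member, the most abundant gene of each marker list and genes that overlap a member. Other genes (Adam17, Jak3, Stat5a, Lif, Il11, Osm, Cntf, Ddx3y, Xist and 6 Stat3 targets) were added after their values were seen. Some genes of the lists are not reported here. As alternatives, libraries were scaled by median of ratios or to total reads, the read minimum was 20 or none, 0.1 or 2 reads were added before the log, and each replicate was left out. Software was scipy 1.17.1, numpy 2.4.6, pandas 2.3.3 and matplotlib 3.10.9 in Python 3.11.15.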

Additional observations from a re-analysis of the deposited data

Results flagged for a closer look

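In 19 genes with at least 1 CPM (8 of the genes described and 11 others of the pathway), the highest and the lowest library were set against the other 4. In 4 genes the gap to the nearest library exceeded Dixon's 95% critical value for 5 libraries. Chance flags about 1 in 20 groups, or 0.95 of 19, and the same rule met 708 of 14524 genes of at least 1 CPM (4.87%). Some of the 11 were picked as the most variable of their list, so the 19 are no random sample. Lifr was 48.6 CPM in replicate 4, against 36.7 to 40.1 in the others. Socs3 was 3.44 CPM in replicate 1, against 2.55 to 2.79. Ptpn11 was 240 CPM in replicate 3, against 209 to 217. Bcl2l1 was 92.8 CPM in replicate 4, against 106 to 109. Replicate 4 was thus the high library for Lifr and the low library for Bcl2l1.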

How the results depend on the processing

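No paired analysis was possible because the columns used belong to a single group. Counting in read pairs lowered the genes called from 14308 to 8753 and the pathway genes called from 32 to 20. Leaving out each replicate in turn gave 12646 to 13125 genes, 26 to 31 pathway genes and 4 to 5 of the 8 genes described. Without a read minimum, 15862 genes and 6 of the genes described were called, Il6 added with a mean of 1.2 reads (adjusted p = 0.0447, 0.382 in read pairs), and with at least 20 reads 12693 and 5. Scaling by median of ratios gave 14303 genes and scaling to total reads 14293, and shifted libraries by at most 0.0643 on the log2 scale. The adjusted p ended on the other side of 0.05 for Stat3 (0.0530 without replicate 2, 0.165 in read pairs) and Lifr (0.108 without replicate 4), and on the same side in the other 77 values computed. All 63 mean levels and 25 ratios moved by less than the spread between libraries. For values with a replicate left out, all 25 ratios among them, this was fixed in advance. Dropping 1 of 5 libraries cannot move a mean by as much as the SD of the libraries. Only the means under the other scalings could have moved further. The mean of Il6 went from 0.0306 to 0.0131 CPM without replicate 5. The SD of the log2 value of Il6 was 1.55 with 0.5 reads added, 2.71 with 0.1 and 0.763 with 2, so it is set by the added reads. Depth limits Il6 and Il27, for which single libraries hold 4 reads at most.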

Other observations

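Over the 5 libraries, the genes whose log2 levels lay closest to those of Osmr after centring were Gm19391, Gm16702 and Cryzl2, with root mean square differences of 0.0619, 0.0859 and 0.0876, against a median of 0.358 over 14476 genes. Cryzl2, a gene named for its likeness to the lens protein zeta-crystallin, had 5.08, 2.88, 3.59, 4.41 and 5.33 CPM in replicates 1 to 5. With 5 libraries this likeness is a description only.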
